A study of Homo sapiens and Mus musculus with 15 samples.

Results

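NLRC5 and the genes of the MHC class I presentation pathway were followed through 5 groups of myeloma cells, naive or resistant to a proteasome inhibitor. The set was a list of 9 gene names: NLRC5, B2M, TAP1, TAP2 and TAPBP in both species, HLA-B and HLA-C in human cells, and H2-K1 and H2-D1 in mouse cells. That gave 7 genes of the 23346 in the human tables and 7 of the 23329 in the mouse tables, and all of them passed the filter on low counts. They were selected on their measured log2 fold changes between these same groups, so their own changes are given as descriptions without p-values. They were part of the same fits as all genes. The counts of their calls are printed, and nothing is read from them. RNA was sequenced from the mouse line 5TGM1, which arose by serial passage of a spontaneous plasma cell tumour of C57Bl/KaLwRij mice, and from RPMI-8226, a human plasma cell myeloma line called 8226 here. 5TGM1 was studied as naive and as bortezomib-resistant cells, and 8226 as naive cells and as cells resistant to bortezomib or to carfilzomib, with 3 libraries in each of the 5 groups. Resistant cells were raised over months in rising drug. The 5TGM1 derivative was kept in 20 nM bortezomib, and those of 8226 in 10 nM bortezomib or 10 nM carfilzomib. Drug was withdrawn 5 days before RNA extraction, and all groups shared the same medium and were within a month of thawing. There was a single derived line per drug and parent, so what came with its derivation cannot be told apart from resistance. The labels do not say whether the 3 libraries of a group were separate cultures, and the p-values cover only the spread among them, which may be technical.

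MHC class I molecules show peptides from inside the cell to CD8+ T cells. The proteasome, which bortezomib and carfilzomib inhibit, cuts the peptides, the TAP1-TAP2 transporter carries them into the endoplasmic reticulum, and tapasin, the product of TAPBP, holds an empty class I molecule at the transporter while a peptide is loaded. A class I molecule is a heavy chain (among them HLA-B and HLA-C in human, H2-K1 and H2-D1 in mouse) bound to beta-2-microglobulin, the product of B2M. NLRC5, a member of the NLR family, binds no DNA itself and acts as a transactivator of class I genes through factors already on their promoters (RFX, CREB and ATF proteins, and NF-Y). Interferon-gamma raises NLRC5, and RFX5, RFXANK and RFXAP are also used by CIITA, the related transactivator of class II genes.

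The promoters on which these factors meet are shown for 4 of the human genes, because some hold and some lack the paired X2 and Y boxes that NLRC5 is known to act through. The sequences are the 250 bases before the transcription start in RefSeq's table for GRCh38.p14, which holds 6 of the 7 human genes and not NLRC5. They are reference sequences, not those of 8226. Capitals mark a CRE half-site (TGACG) followed on the same strand by an inverted CCAAT box (ATTGG), or an interferon response-like element (GAAANNGAAA on either strand).
B2M: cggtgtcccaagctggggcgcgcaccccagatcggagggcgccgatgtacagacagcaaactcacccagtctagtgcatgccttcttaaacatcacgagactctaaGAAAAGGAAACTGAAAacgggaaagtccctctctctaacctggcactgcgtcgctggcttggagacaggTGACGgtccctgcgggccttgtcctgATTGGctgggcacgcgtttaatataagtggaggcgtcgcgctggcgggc
HLA-B: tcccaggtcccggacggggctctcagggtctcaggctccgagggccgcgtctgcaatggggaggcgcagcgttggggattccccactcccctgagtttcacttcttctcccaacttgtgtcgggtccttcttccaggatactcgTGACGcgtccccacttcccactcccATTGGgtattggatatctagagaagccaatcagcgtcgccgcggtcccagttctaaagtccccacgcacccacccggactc
HLA-C: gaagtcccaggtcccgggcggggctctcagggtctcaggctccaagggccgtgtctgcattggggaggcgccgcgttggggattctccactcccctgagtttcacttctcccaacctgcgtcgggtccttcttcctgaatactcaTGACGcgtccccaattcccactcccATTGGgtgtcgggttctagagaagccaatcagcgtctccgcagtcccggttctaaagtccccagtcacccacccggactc
TAP1: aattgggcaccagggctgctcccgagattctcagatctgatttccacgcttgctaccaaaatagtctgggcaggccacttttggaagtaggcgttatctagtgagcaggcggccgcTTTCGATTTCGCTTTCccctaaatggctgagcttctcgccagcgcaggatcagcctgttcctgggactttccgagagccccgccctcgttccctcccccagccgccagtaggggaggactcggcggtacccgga
They lie at chr15:44711267-44711516 (plus strand) for B2M, chr6:31357180-31357429 (minus) for HLA-B, chr6:31272093-31272342 (minus) for HLA-C and chr6:32853705-32853954 (minus) for TAP1, each printed 5′ to 3′ in the direction of its gene.

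Both strands of all 27305 promoters of the table were searched for 5 short motifs. TGACG was found in 4 of the 6 promoters (B2M, HLA-B, HLA-C and TAP2) and in 21.7% of all promoters. ATTGG was found in B2M, HLA-B, HLA-C and TAP1 and in 33.0% of all. The pair, with 18 to 23 bases between its parts, was found in B2M, HLA-B and HLA-C, and in 85 promoters of the table (0.311%). This spacing was set after the HLA-B and B2M sequences had been seen. Of 8 other class I pathway promoters searched (HLA-F, HLA-G, PSMB8, PSMB9, PSMB10, PSME1, PSME2 and IRF1), 0 held the pair. Only exact letters were searched, so this does not show that the paired boxes are absent. HLA-F holds TAACG rather than TGACG ahead of its ATTGG, in a stretch much like that of HLA-B. The HLA-G window held none of the 5 motifs. The pair ran from -75 to -45 in B2M, with 21 bases between the parts. In HLA-B it ran from -106 to -77 and in HLA-C from -105 to -76, each with 20. Here -1 is the last base before the start. GAAANNGAAA was found in B2M, TAP1, TAP2 and TAPBP and in 3.07% of all promoters, and in B2M, TAP1 and TAPBP it occurred as 2 overlapping copies. HLA-B and HLA-C both hold TTTCACTTCT, which on the other strand is near this motif but outside its exact letters. Having no match there does not show that they lack an interferon response element. A kappaB-like motif (GGGANTNNCC) was found in B2M, HLA-B, HLA-C and TAP1 and in 4.38% of all, overlapping its own other-strand match in HLA-B. The GAS-like palindrome TTCNNNGAA was in none of the 6 and in 6.78% of all promoters, which says only that these letters are not in this window. A match is a description of letters and not a bound site.

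**Figure D1:**
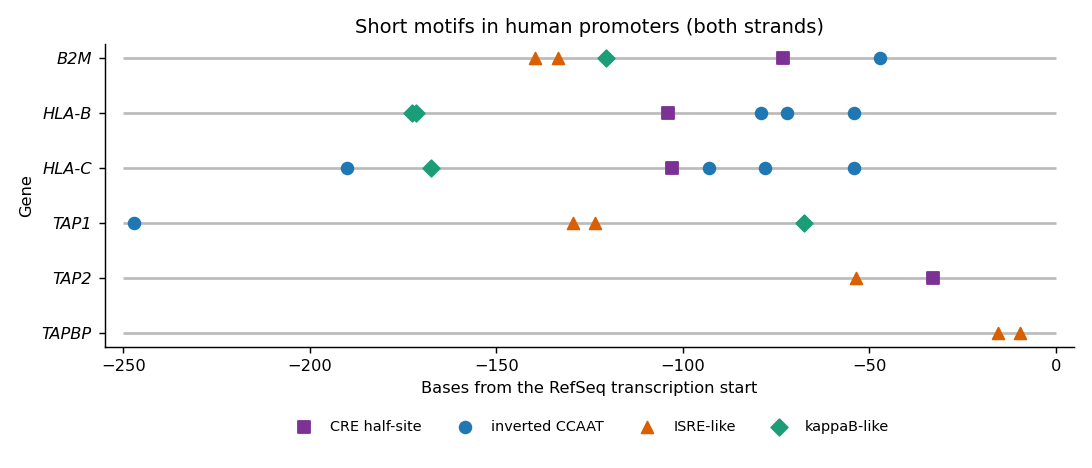
Short motifs in the 250 bases before the RefSeq start of 6 human class I pathway genes, with the distance from the start in bases on the x axis and 1 row per gene. A CRE half-site (square) stands to the left of an inverted CCAAT box (circle) at similar distances in B2M, HLA-B and HLA-C, and TAP2 holds a half-site without a box. Interferon response-like elements (triangles) stand in B2M, TAP1, TAP2 and TAPBP. Only exact matches are drawn, so a row without a symbol does not show that the element is absent.

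Levels are in CPM, the reads of a gene relative to all gene reads of its library after TMM scaling, given for the 3 libraries of a group in replicate order, and changes are log2 fold changes ± SE from edgeR. Reads on genes ran from 49097494 to 72288680 per mouse library and from 31709636 to 58419576 per human one. The counting left out reads with more than 1 mapping place (15.3% to 16.3% of reads in 5TGM1, 8.95% to 10.9% in 8226), so H2 and HLA genes, which have near-identical copies, are undercounted to an unknown extent. H2-Q7, a close copy of other H2-Q genes, had 0 counts in all 6 mouse libraries. Of 7 plasma cell markers (among them SDC1, IRF4, PRDM1 and XBP1), 7 exceeded 1 CPM in every group but bortezomib-resistant 8226, where 6 did. Their sum ran from 4050 to 4260 CPM in naive and from 5060 to 5150 CPM in resistant 5TGM1, and from 1750 to 1870 CPM in naive, 1330 to 1350 CPM in bortezomib-resistant and 1040 to 1090 CPM in carfilzomib-resistant 8226. Macrophage markers summed to 19.1 to 20.1 CPM in naive and 25.1 to 26.1 CPM in resistant 5TGM1, with Mrc1 alone over 1 CPM. The part of these shifts in the results below was not tested. Of the epithelial list, Epcam and Krt18 exceeded 1 CPM in 5TGM1 and all 4 genes did in 8226 (summed 229 to 315 CPM). T and NK cell markers summed to at most 1.74 CPM in any library, with NKG7 or KLRD1 at 0 counts in each 8226 group.

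In 5TGM1 the question was what distinguishes cells made resistant to bortezomib from their naive parent. Transcripts of the transactivator, the light chain, both heavy chains and TAP1 were several-fold lower in the resistant cells, while Tap2 and Tapbp stayed within 1.12-fold of the naive mean. Nlrc5, the transactivator, stood at 56.6, 60.2 and 54.7 CPM in the naive libraries and at 6.98, 7.01 and 7.08 CPM in the resistant ones, which was 8.15-fold lower (-3.03 ± 0.0556). All 3 resistant libraries lay far below every naive library, and each still held at least 349 Nlrc5 reads. In bulk RNA, fewer cells with a transcript and less of it per cell cannot be told apart.

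B2m, which encodes the light chain of every class I molecule, stood at 3107, 2942 and 3003 CPM in naive and at 919.8, 967 and 989 CPM in resistant libraries (3.15-fold lower, -1.65 ± 0.0438). H2-K1, a classical heavy chain, stood at 3643, 3384 and 3534 CPM against 731, 722 and 711 CPM (4.88-fold lower, -2.29 ± 0.0436). The other classical heavy chain, H2-D1, stood at 3581, 3367 and 3469 CPM against 909, 881 and 900.3 CPM (3.87-fold lower, -1.95 ± 0.0424). For these 3 genes the libraries within a group lay close together and the groups were well apart. Summed over all 30 H2 class I genes and pseudogenes of the table, heavy-chain reads went from 7729.8 ± 266 to 1959.4 ± 22.9 CPM (mean ± SD, n = 3), 3.95-fold lower. This sum, added after the values had been seen, counts reads assigned to any copy but not those set aside. Most of it is H2-K1 and H2-D1 (means of 3520 and 3473 CPM in naive cells), which were selected on this contrast. The fall of the sum is therefore largely theirs and no separate result.

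The transporter subunits differed from each other. Tap1 stood at 184, 194 and 201 CPM in naive and at 56.6, 57.3 and 53.0 CPM in resistant cells (3.46-fold lower, -1.79 ± 0.0473). Tap2, its partner in the heterodimer, stood at 66.9, 65.4 and 66.5 CPM against 61.8, 63.8 and 60.3 CPM (-0.10 ± 0.0412). The Tap2 groups did not overlap, but their gap was a small part of that seen for Tap1. Tapbp, the tapasin gene, stood at 121, 137 and 141 CPM against 149, 156 and 143 CPM (0.17 ± 0.0534), with the resistant libraries slightly above the naive ones and a difference of 0.10 without naive replicate 1. Of the 7 mouse genes, 5 were called lower and 1 higher at an adjusted p below 0.05, and in all 7 the groups did not overlap. Among all 11974 tested mouse genes 67.2% were called (33.2% lower, 34% higher) and 69.7% did not overlap, and nothing is read from the members' count, since the list was made from this contrast. The median change of the 7 was -1.79, beside 0.00 over all tested genes.

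**Figure D2:**
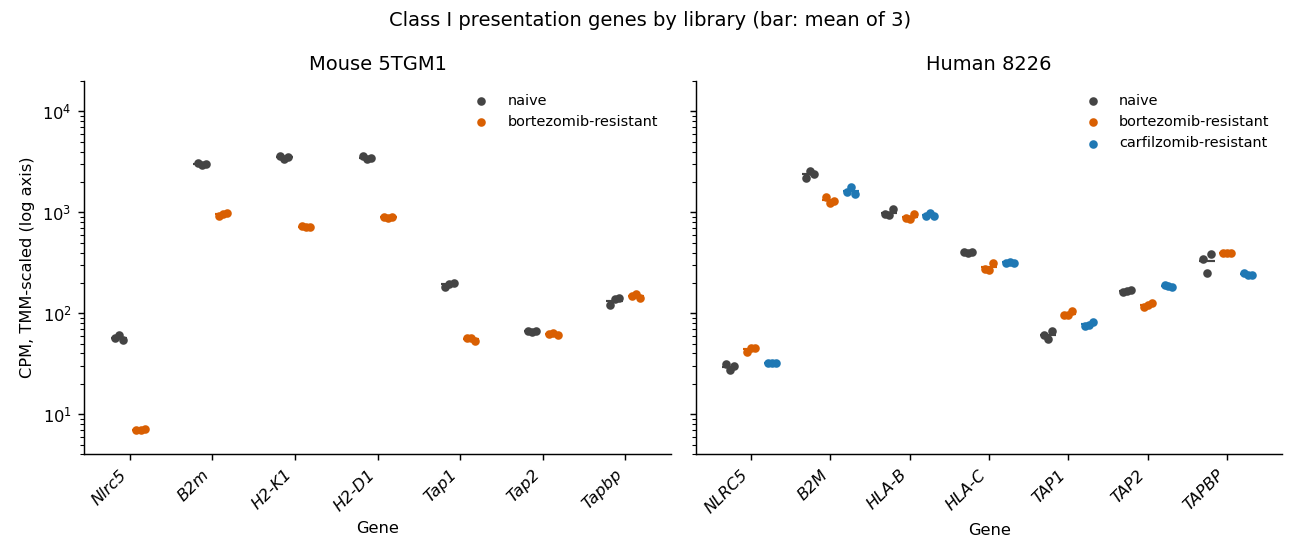
Level of each listed gene in every library (CPM on a log axis), 1 point per library and a bar at the mean of 3, for mouse 5TGM1 (left) and human 8226 (right). In 5TGM1 the resistant points of Nlrc5, B2m, H2-K1, H2-D1 and Tap1 lie far below the naive ones, whereas in 8226 the groups lie close and NLRC5 and TAP1 are highest in bortezomib-resistant cells.

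The rest of the class I pathway was read from 7 lists that hold none of the 9 names, by the quasi-likelihood F test of edgeR, with p-values adjusted over all tested genes by the Benjamini-Hochberg method. These lists were chosen with earlier results of these data known, so their p-values are no independent support. In 5TGM1, 13 of 46 tested genes rose and 28 fell, with a median of -0.18, beside 34% of all genes higher and 33.2% lower. All 9 tested further heavy chains fell (median -1.31): H2-T10, a nonclassical chain, from 23.1 ± 0.806 to 4.64 ± 0.367 CPM (-2.32 ± 0.0673, adjusted p = 3e-14), H2-Q6 from 154 ± 6.03 to 31 ± 2.45 CPM (-2.31), H2-Q4 from 283 ± 14.2 to 104 ± 1.5 CPM (-1.45), and H2-T23, the functional counterpart of HLA-E, from 112 ± 4.63 to 83.5 ± 1.64 CPM (-0.42 ± 0.0430, adjusted p = 2.6e-07). The last of these gaps was the smallest of the 4 named. All 5 immunoproteasome and PA28 genes fell (median -1.23), with Psmb8 at -1.56, Psmb9 at -1.47, Psme1 at -1.23 and Psme2 at -1.17. The immunoproteasome and its PA28 cap favour peptides that suit class I molecules.

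Genes of peptide trimming and loading moved little in 5TGM1, with 1 rise and 4 falls of 6 (median -0.12). The chaperone gene Calr rose by 0.12 ± 0.0395 (adjusted p = 0.012), Canx (-0.18) and Bcap31 (-0.17) fell, and Pdia3 was not called (0.05). The calls of Erap1 (-0.10), the trimming peptidase of the endoplasmic reticulum, and Tapbpl (-0.13) were lost when single libraries were left out (resistant replicate 2 for both, with adjusted p = 0.20 and 0.089). Of 13 regulators, 4 rose and 7 fell. Irf2 (-0.79 ± 0.0464, adjusted p = 2.7e-10), Irf9 (-0.31), Irf1 (-0.29), an interferon-induced activator, and Rfx5 (-0.24) fell, while Rfxap (0.53 ± 0.0468, adjusted p = 4.2e-08) and Rfxank (0.41) rose. Ciita, the class II transactivator, went from 0.432 ± 0.0872 to 0.159 ± 0.0383 CPM (-1.39, adjusted p = 0.00066), a level of 72 and 26 reads per group. Interferon receptor and kinase genes gave 5 rises and no fall among 7, led by Ifnar2 (1.09 ± 0.0381, adjusted p = 3.1e-13), Jak1 (0.61, from 4.49 to 6.84 CPM) and Jak2 (0.43), with Ifnar1 (0.16) and Ifngr1 (0.13). Of 3 class I-like genes, Fcgrt, the neonatal Fc receptor chain that also pairs with beta-2-microglobulin, fell by 1.03, Cd1d1 fell, and Mr1 rose by 0.71. Of 3 other NLR genes 2 rose and 1 fell, all below 10 CPM.

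In human 8226 the comparison asked how bortezomib-resistant cells differed from naive ones. NLRC5 and TAP1 were higher in the resistant cells and B2M, HLA-C and TAP2 were lower, all by less than 2-fold. NLRC5 stood at 31.1, 27.6 and 30.1 CPM in naive libraries and at 41.2, 45.3 and 45.4 CPM in resistant ones (1.48-fold higher, 0.57 ± 0.0634). Every resistant library lay above every naive one, the opposite order to that in 5TGM1. B2M stood at 2214, 2542 and 2406 CPM against 1404, 1247 and 1298 CPM (1.81-fold lower, -0.86 ± 0.0686), the largest gap among the human genes listed. In the same libraries B2M was thus lower and NLRC5 higher than in naive cells, and a link between the 2 was not tested.

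Of the heavy chains, HLA-B stood at 971, 944 and 1070.5 CPM in naive and at 889, 849.7 and 965 CPM in resistant libraries (-0.14 ± 0.0629, and -0.09 without naive replicate 3), and the groups overlapped. HLA-C stood at 402, 397 and 402 CPM against 276, 270.2 and 312 CPM (1.40-fold lower, -0.48 ± 0.0559) with no overlap. Their reference promoters carry the paired module at nearly the same place, as printed above, and its part in these levels was not tested. TAP1 stood at 60.6, 55.3 and 66.1 CPM against 95.4, 95.6 and 105 CPM (1.63-fold higher, 0.70 ± 0.0677). TAP2 stood at 163, 165 and 169.8 CPM against 115, 120.1 and 126 CPM (1.38-fold lower, -0.46 ± 0.05). The transporter subunits thus lay on opposite sides of the naive level, each without overlap.

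TAPBP stood at 346, 253 and 382 CPM in naive and at 398, 399 and 395 CPM in bortezomib-resistant libraries (0.28 ± 0.102). Naive replicate 2 lay apart from the other naive libraries, and without it the difference was 0.12. Of the 7 human genes, 3 were called higher and 4 lower, with no overlap in 6, beside 79.8% of 13910 tested genes called (38.2% higher, 41.6% lower) and 79.6% with no overlap. Nothing is read from these counts. The median of the 7 was -0.14, beside -0.03 over all genes. Scaling by library size alone moved the median of all genes from -0.03 to 0.16 and the share of called genes that were higher from 47.9% to 58.7%, and HLA-B then turned to 0.04. The other 6 kept their direction under this scaling. Macrophage markers summed to 3.01 to 3.43 CPM in naive 8226. Their sum was 16.4 to 17.9 CPM in bortezomib-resistant and 6.41 to 6.84 CPM in carfilzomib-resistant cells. The markers did not move together: EMR1 alone exceeded 1 CPM in the resistant cells, and MRC1 alone did in naive cells. MRC1 was at 0 counts in carfilzomib-resistant cells, and CD163 was at 0 counts in both resistant groups. The part of these markers in the differences above was not tested.

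**Figure D3:**
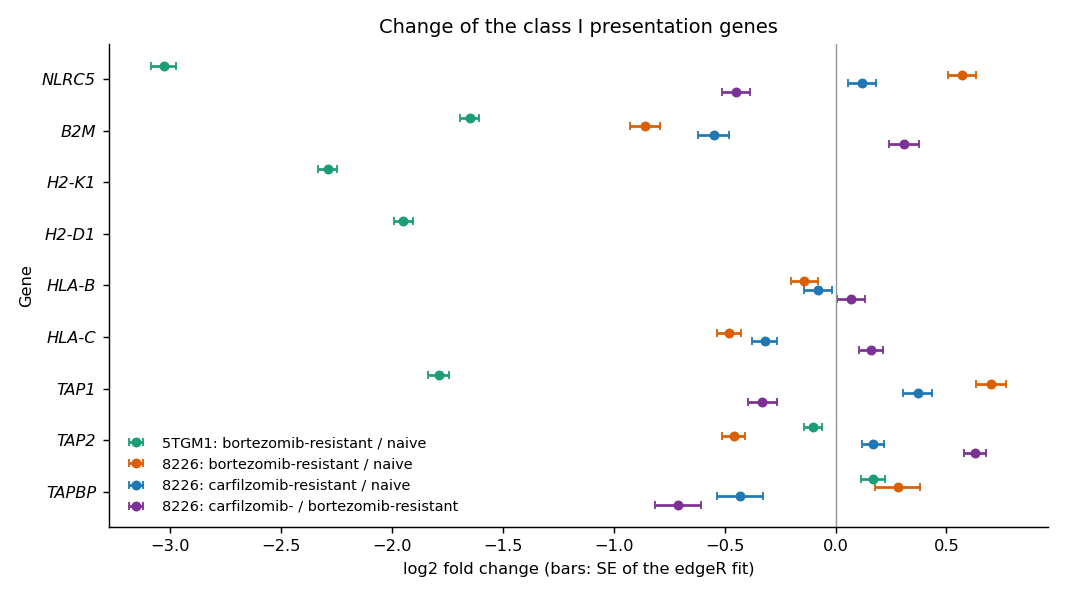
Log2 fold change of each listed gene in the 4 comparisons, with bars of 1 SE of the edgeR fit and a line at 0. NLRC5 lies at -3.03 in 5TGM1 and at 0.57 in bortezomib-resistant 8226, TAP1 follows the same order, and B2M lies below 0 against naive cells in both lines.

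In the other pathway lists, 16 of 45 genes rose and 22 fell in bortezomib-resistant 8226, a share called close to the 79.8% of all genes. With library size alone 14 fell. The 3 further heavy chains listed fell (median -0.70): HLA-E, a ligand of NK cell receptors, from 179 ± 4.48 to 133 ± 5.99 CPM (-0.43 ± 0.05, adjusted p = 1.2e-06), HLA-G by 0.70 and HLA-F from 0.833 to 0.147 CPM (-2.46, 101 and 16 reads, and -3.26 without bortezomib-resistant replicate 3). Summed over 8 HLA class I genes and pseudogenes, heavy-chain reads went from 1650.4 ± 71.3 to 1376.1 ± 92 CPM, 1.2-fold lower. The 8 were HLA-B, HLA-C, HLA-E, HLA-F, HLA-G, HLA-H, HLA-J and HLA-L. Most of the sum is HLA-B and HLA-C (means of 995 and 400 CPM in naive cells), which are described above. Genes not reported here are outside this sum, so it is not the whole class I heavy-chain level. It cannot be set beside the 5TGM1 sum. Of 7 trimming and loading genes 1 rose and 5 fell. ERAP1 rose from 149 ± 7.83 to 385 ± 3.86 CPM (1.37 ± 0.0518, adjusted p = 1.4e-12), while TAPBPL, a tapasin relative that edits peptides (-1.67 ± 0.0690), CALR (-0.97) and PDIA3 (-0.60) fell. Of the immunoproteasome and PA28 genes 2 rose, PSMB8 (0.31) and PSMB9 (0.45), and 2 fell, PSME1 (-0.44) and PSME2 (-0.24). The call of PSME2 was lost with library size alone (-0.06, adjusted p = 0.36).

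The regulators held the largest rises, with 7 of 13 higher and 4 lower (median 0.35). IRF9, which takes part in the response to type I interferon, rose from 10.6 ± 0.485 to 25.6 ± 1.18 CPM (1.27 ± 0.101, adjusted p = 1.3e-08), and STAT2 rose by 1.25. CIITA rose from 1.39 ± 0.457 to 9.92 ± 0.781 CPM (2.82 ± 0.158, adjusted p = 1.7e-10). NFYC, an NF-Y subunit, rose by 0.66, RFX5 rose by 0.35 and IRF1 fell by 0.60 (adjusted p = 4e-07), as did RFXAP by 1.12. Among interferon receptor and kinase genes the kinases JAK2 (1.36), JAK1 (0.88) and TYK2 (0.55) rose and all 4 receptor chains fell, IFNGR1 most (-0.54). With library size alone the calls of IFNAR1 (-0.07), IFNAR2 (-0.04) and IFNGR2 (-0.02) were lost. Of 4 class I-like genes 2 fell: MICB, a stress ligand of NKG2D, by 0.42, and FCGRT, which went from 152 reads in the 3 naive libraries to 2. Of 6 other NLR genes 3 rose and 2 fell, and NLRP1 fell from 22 ± 2.56 to 1.29 ± 0.0398 CPM (-4.09 ± 0.118, adjusted p = 5.3e-14).

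Carfilzomib-resistant 8226 cells lay closer to naive cells in most of the listed genes. NLRC5 stood at 32.0, 32.1 and 32.2 CPM, just above the naive libraries (0.12 ± 0.0633, and 0.07 without naive replicate 2). B2M stood at 1608, 1764 and 1535 CPM (1.46-fold below naive, -0.55 ± 0.0682), and HLA-C at 317, 325 and 318 CPM (1.25-fold below, -0.32 ± 0.0556). Both lay below every naive library and above every bortezomib-resistant one. HLA-B stood at 928, 988 and 915 CPM (-0.08 ± 0.0628, and -0.02 without naive replicate 3), overlapping the naive and the bortezomib-resistant libraries. Over the same 8 HLA genes and pseudogenes, again without genes not reported here, the heavy-chain sum was 1478.7 ± 47.3 CPM, 1.12-fold below naive.

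TAP1 stood at 75.6, 77.0 and 82.1 CPM in carfilzomib-resistant cells (1.29-fold above naive, 0.37 ± 0.0674), between the other groups. TAP2 stood at 189, 188 and 183 CPM (1.13-fold above naive, 0.17 ± 0.0495), above both other groups. TAPBP stood at 252, 239.8 and 239 CPM (-0.43 ± 0.103), below both, though naive replicate 2 lay just above the highest of them. Without naive replicate 2 the TAPBP difference was -0.58, and without naive replicate 3 it was -0.30. Of the 7 genes 2 were called higher and 3 lower, with no overlap in 6, beside 71.7% of all tested genes called (35% higher, 36.7% lower) and 73.1% with no overlap, and nothing is read from these counts. The median was -0.08, beside -0.00 over all genes. With library size alone 54.3% of the called genes were higher instead of 48.9%.

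Of the other pathway genes 18 of 45 rose and 17 fell against naive 8226, a share called not far from the 71.7% of all genes. HLA-E (-0.31 ± 0.0497, adjusted p = 4.7e-05) fell, HLA-G was not called (-0.22), and HLA-F rose from 0.833 to 3.17 CPM (1.91 ± 0.181, adjusted p = 1.5e-07, 101 and 475 reads). Loading genes gave 2 rises and 4 falls of 7: TAPBPL (-1.06), CALR (-0.38 ± 0.0552, adjusted p = 1.8e-05), BCAP31 (-0.31) and PDIA3 (-0.25) fell and ERAP2 (0.29) rose, while ERAP1 (-0.02) was not called. PSMB8 rose by 0.70 ± 0.0649 (adjusted p = 1.1e-07) and PSMB9 by 0.25, and PSME1 (-0.59) and PSME2 (-0.39) fell. The call of PSMB9 was lost without naive replicate 1 (adjusted p = 0.054). Of 13 regulators 3 rose, NFYC (0.87 ± 0.051, adjusted p = 5e-10), RFX5 (0.50) and NFYA, and 5 fell, among them IRF9 (-1.18) and RFXANK (-0.41). IRF1 (-0.11) was not called, and CIITA (-0.41, adjusted p = 0.091) was called only without naive replicate 2 (-0.61, adjusted p = 0.0091).

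Interferon receptor and kinase genes gave 6 rises and 1 fall of 7, with JAK2 (1.15 ± 0.0811, adjusted p = 4.4e-09), JAK1 (0.44), IFNGR1 (0.40) and TYK2 (0.37) higher. All 4 class I-like genes fell, MICB by 0.18, MR1 by 0.19 and FCGRT from 152 to 8 reads. The MR1 call was lost with library size alone (-0.13, adjusted p = 0.11), without naive replicate 2 (-0.13, adjusted p = 0.083) and without carfilzomib-resistant replicate 2 (-0.13, adjusted p = 0.12). Of 6 other NLR genes 4 rose and none fell, with NOD1, a sensor of bacterial cell wall fragments, from 16.2 ± 0.600 to 37.5 ± 1.67 CPM (1.21 ± 0.0622, adjusted p = 9.2e-11) and NLRX1 at 1.21.

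**Figure D4:**
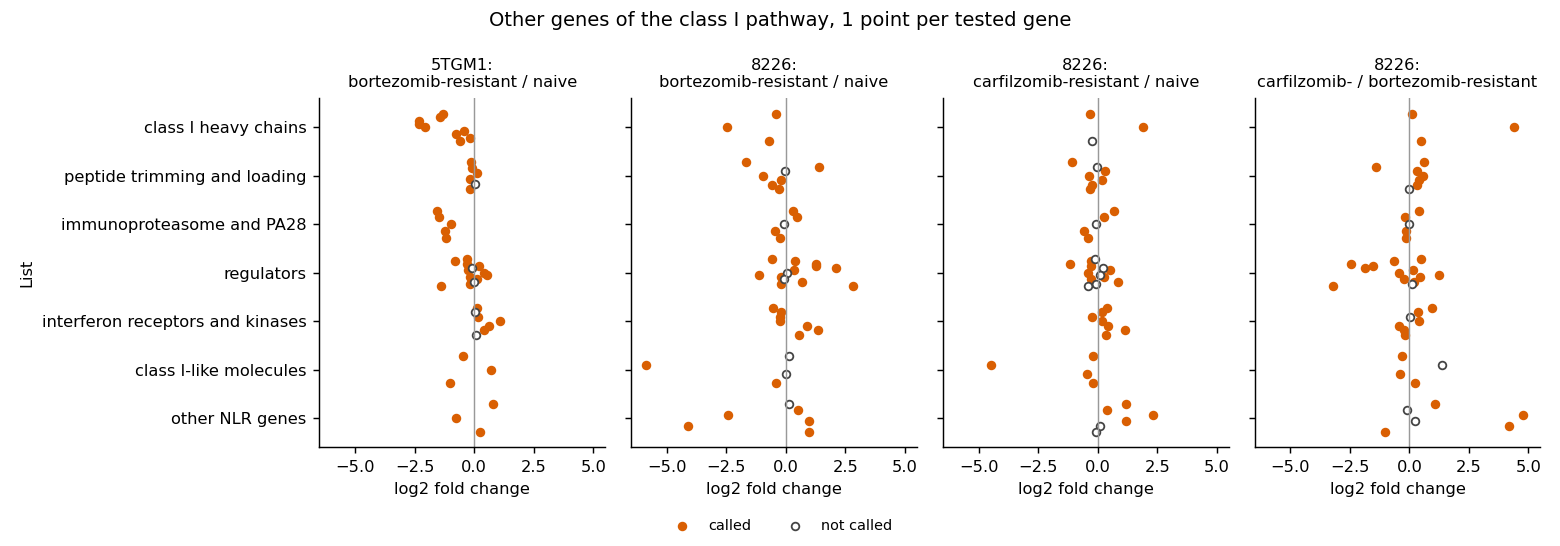
Log2 fold change of every tested gene of the 7 other class I pathway lists in the 4 comparisons, 1 point per gene, filled where called at an adjusted p below 0.05 and open otherwise. Heavy chain and immunoproteasome points all lie below 0 in 5TGM1, and the regulators spread furthest above 0 in bortezomib-resistant 8226.

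Carfilzomib- and bortezomib-resistant 8226 were also compared with each other. These libraries are those described above. The value of NLRC5 in carfilzomib- over bortezomib-resistant cells was -0.45 ± 0.0626, that of TAP1 was -0.33 ± 0.0668 and that of TAPBP was -0.71 ± 0.103. B2M (0.31 ± 0.0681), HLA-C (0.16 ± 0.0558) and TAP2 (0.63 ± 0.0499) lay higher in carfilzomib-resistant cells, and HLA-B (0.07 ± 0.0629) overlapped, ran from 0.03 to 0.12 without bortezomib-resistant replicate 2 or 3, and turned to -0.06 with library size alone. For NLRC5 the order of the means was naive, carfilzomib-resistant and bortezomib-resistant from low to high. The naive libraries reached 31.1 CPM and the carfilzomib-resistant ones began at 32.0 CPM, a gap smaller than the spread of the naive libraries. Of the 7 genes 3 were called higher and 3 lower, with no overlap in 6, beside 76.9% of genes called (39.9% higher, 37% lower) and 79.8% with no overlap. Nothing is read from these counts, and the median was 0.07 beside 0.02 over all genes. With library size alone that median was -0.08, and 4693 genes were called higher and 6005 lower instead of 5549 and 5141.

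Of the other pathway genes 21 of 45 rose and 17 fell in carfilzomib- over bortezomib-resistant cells, beside 76.9% of all genes called. The 3 further heavy chains listed were called higher, HLA-F (4.38 ± 0.266, adjusted p = 5.5e-10) and HLA-G (0.48) most, and HLA-F was at 5.17 without bortezomib-resistant replicate 3. HLA-E (0.12, adjusted p = 0.042) lost its call when single libraries were left out, with an adjusted p up to 0.17 without bortezomib-resistant replicate 2, and it turned to -0.01 with library size alone. Loading genes gave 5 rises and 1 fall of 7, with TAPBPL (0.61), CALR (0.59 ± 0.0554, adjusted p = 9.3e-08) and CANX (0.40) higher and ERAP1 (-1.39 ± 0.0517, adjusted p = 1.3e-12) lower. PSMB8 was higher (0.39 ± 0.0646, adjusted p = 5.2e-05), and the calls of PSMB9 (-0.20), PSME1 (-0.15) and PSME2 (-0.15) were each lost when single libraries were left out, among them bortezomib-resistant replicate 3 (adjusted p = 0.11, 0.21 and 0.069). Of 13 regulators 5 rose and 7 fell: CIITA (-3.22 ± 0.159, adjusted p = 4.2e-11), IRF9 (-2.44), STAT2 (-1.52 ± 0.056, adjusted p = 1.3e-12) and IRF2 (-0.66) were lower, and RFXAP (1.23) and IRF1 (0.49) were higher. RFX5 (0.15, adjusted p = 0.011) lost its call with library size alone (adjusted p = 0.62).

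Receptor and kinase genes split evenly, with IFNGR1 (0.95 ± 0.0605, adjusted p = 1e-09), IFNAR2 (0.40) and IFNGR2 (0.38) higher and JAK1 (-0.44) among the 3 kinases that were lower. Of 4 class I-like genes MICB rose (0.24, not called with library size alone) and MR1 (-0.33) and MICA fell. Of 6 other NLR genes 3 rose and 1 fell. NLRP1 stood at 23.5 ± 1.08 CPM in carfilzomib-resistant cells (4.18 ± 0.117, adjusted p = 4.4e-14), and NOD1 was higher by 1.07.

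The bortezomib changes of the lines were set against each other over 11847 genes with the same symbol in both species, a match of names and not of orthology. For the listed genes the difference (8226 minus 5TGM1) is a description. It was 3.62 ± 0.0910 for NLRC5, 2.52 ± 0.0898 for TAP1, 0.82 ± 0.0866 for B2M, -0.35 ± 0.0682 for TAP2 and 0.14 ± 0.138 for TAPBP. NLRC5 and TAP1 were lower in every resistant 5TGM1 library and higher in every resistant 8226 library than in naive cells of the line. The TAPBP value turned to -0.02 without naive 8226 replicate 2. Of these 5 genes 3 were called higher in 8226 and 1 lower, beside 64.9% of all genes called (31.4% higher, 33.5% lower), and nothing is read from that count.

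Among 38 other pathway genes the difference was called higher in 8226 for 18 and lower for 13 by edgeR's quasi-likelihood test of the interaction, beside the 31.4% and 33.5% of all genes. All 5 immunoproteasome and PA28 genes were higher (median 0.94), including PSMB9 (1.94 ± 0.104, adjusted p = 2.4e-12) and PSMB8 (1.89 ± 0.0851, adjusted p = 1.6e-13). Of 13 regulators 7 were higher and 3 lower, with CIITA at 4.22 ± 0.391 (adjusted p = 1e-08), IRF9 at 1.60 and RFX5 at 0.61, and IRF1 at -0.28. Of 6 trimming and loading genes ERAP1 was higher (1.49) and TAPBPL (-1.52), CALR (-1.07) and PDIA3 (-0.63) were lower. Kinase genes were higher and all 4 interferon receptor chains lower, 3 and 4 of 7. Of the class I-like pair both were lower, and of 5 other NLR genes 2 were higher and 1 lower. Scaling by library size alone moved the median of all genes from -0.03 to 0.15 and the share of called genes that were higher from 48.3% to 58.9%, and the calls of IRF1, RFXANK (-0.35, and -0.17 with library size alone) and IFNGR2 (-0.20) were then lost. The IFNGR2 call (adjusted p = 0.042) was also lost with counts taken without regard to strand (adjusted p = 0.061) and when single naive or resistant libraries of either line were left out, with adjusted p up to 0.13 without bortezomib-resistant 8226 replicate 2.

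The pattern of NLRC5 over the 15 libraries was compared with that of 8944 genes tested in both lines, by the root mean square difference of log2(CPM + 0.5) after centring on the naive mean of each line. The 5 closest genes were KRT18, a keratin (0.221), ARSB, a lysosomal sulfatase (0.287), CCDC102A (0.378), AGAP1 (0.400) and MAP3K4, a stress-activated kinase (0.462). KRT18, which is also on the epithelial marker list, had log2 fold changes of -2.79 in 5TGM1, 0.47 in bortezomib-resistant and 0.33 in carfilzomib-resistant 8226. In the same order ARSB had -3.01, 1.08 and 0.43, and CCDC102A had -4.25, 1.2 and -0.09. AGAP1 had -5.95, -0.17 and 0.04, and MAP3K4 had -5.67, 0.18 and 0.36, beside -3.03, 0.57 and 0.12 for NLRC5. The 0.5 CPM added in the measure shrinks the changes of genes at low levels. The transporter gene TAP1 ranked 8th (0.536), PSMB9 22nd and PSMB8 26th, B2M 128th (0.913), and TAP2 and TAPBP 3432nd and 4901st. All libraries of a group share their naive reference in this measure, so it is a description without a test.

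The 5 nearest tested genes on each side of the human genes were read by the order of RefSeq's GRCh38.p14 table, which placed 13396 of the 13910 tested genes. On chromosome 16, 4 of NLRC5's 10 neighbours rose and 4 fell in bortezomib-resistant 8226, and 2 rose and 6 fell in carfilzomib-resistant 8226. Over all tested genes 79.8% and 71.7% were called in these comparisons, so the number of called neighbours of NLRC5, or of B2M below, singles out no region. The adjacent HERPUD1, a gene of endoplasmic reticulum stress, fell in both (-1.32 ± 0.0522, adjusted p = 2.2e-12, and -1.10 ± 0.0517, adjusted p = 3e-11), and CPNE2 on the other side rose by 0.36 and fell by 1.42. NUP93 (0.13 and 0.20) and ARL2BP (0.13 and -0.19) were called in both comparisons, and FAM192A (-0.45) and RSPRY1 (0.25) were called in carfilzomib-resistant cells. Of the metallothionein genes, MT1G went from 596 reads to 0 in bortezomib- and 52 in carfilzomib-resistant cells, MT1F from 61 to 0 in both, and MT1X fell by 0.71 in bortezomib-resistant cells. PLLP went from 3 reads to 256 and to 1.

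Around B2M on chromosome 15, 4 neighbours rose and 4 fell with bortezomib resistance, and 5 rose and 1 fell with carfilzomib resistance. GATM, which makes a creatine precursor, fell by 1.07 ± 0.0514 (adjusted p = 2.7e-11) and by 4.63 ± 0.0635 (adjusted p = 6.9e-17). SORD (-0.22 and 0.68) and DUOX1 (28 reads, then 1 and 64) went down in bortezomib- and up in carfilzomib-resistant cells, and SLC30A4 (0.63 and 0.98) rose in both. CASC4 (0.38), SPG11 (0.40) and PATL2 (1.10) rose and EIF3J (-0.32) fell in bortezomib-resistant cells, and CTDSPL2 (0.31) and SPATA5L1 (0.59) rose in carfilzomib-resistant ones. Over the 31 neighbours of the 5 listed genes in the MHC on chromosome 6, 14 rose and 9 fell in bortezomib-resistant cells. In carfilzomib-resistant cells 12 rose and 13 fell. Over all tested genes 38.2% rose and 41.6% fell in the first comparison, and 35% and 36.7% in the second. Of TAP2's 9 neighbours outside the list, 8 rose and 1 fell with bortezomib resistance (median 3.67). With carfilzomib resistance 8 rose and 0 fell (median 1.19). These neighbours include the class II genes HLA-DQA1 (7.56 and 2.96) and HLA-DMB (3.67 and 1.19). Around TAPBP 3 of 10 rose and 3 fell, then 1 rose and 8 fell. The class II gene HLA-DQA2 went from 0 reads in naive to 584 in bortezomib- and 26 in carfilzomib-resistant cells. In carfilzomib- over bortezomib-resistant cells 8 of the 31 rose and 20 fell, beside 39.9% and 37% of all tested genes. Of TAP2's neighbours 2 rose and 7 fell. HCP5, a noncoding gene near HLA-B, was at 7 reads in bortezomib- and 1025 in carfilzomib-resistant cells.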

How the data were processed

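The authors deposited, for each of the 15 libraries, whole-number read counts per gene symbol in the layout STAR writes, without normalization. STAR and the builds mm10, hg19, GRCm38 and GRCh37 are named in the submitters' processing notes without role, and versions and annotation release are not given in the sources used here. Column 4, the strand that holds nearly all reads (1.43% to 2.12% lay on the other), was used. The 4 total rows and reads on several places stayed out of library sizes.

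Counts were fitted with edgeR 4.0.16 (limma 3.58.1, R 4.3.3) after filterByExpr, TMM scaling per line and a fit over all groups of a line, by quasi-likelihood F tests with Benjamini-Hochberg adjustment over all tested genes. The fits were tested on simulated data. Genes with an adjusted p below 0.05 were called. DESeq2 1.42.0, library size alone, no filter, counts without strand, left-out libraries and a replicate block were tried.

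The members and lists were chosen with earlier results of these data known. Named pathway genes are HLA-E, HLA-F, H2-T23, H2-Q7, IRF1, RFX5, CIITA, PSMB8, PSMB9, ERAP1 and CALR, and the 4 called genes of each list with the largest change and at least 10 CPM in the higher group. FCGRT, NFYA, HLA-G in carfilzomib-resistant cells, and other genes outside this rule were named after their values were seen. The 7 lists are class I heavy chains, peptide trimming and loading, immunoproteasome and PA28, regulators, interferon receptors and kinases, class I-like molecules, and other NLR genes.

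Replicates were not duplicates of a library, with chi-square per degree of freedom of 3.98 to 25.8 between them. A count of 0 allows up to 3 counts, 0.0414 to 0.0875 CPM by library, for counting error only. Some pathway genes are not reported here and were left out of the lists. Sequences of the mouse genes were not used here.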

Additional observations from a re-analysis of the deposited data

Results flagged for a closer look

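The bortezomib changes of the lines differed for the genes given here, as 8226 minus 5TGM1 on the log2 scale. For NLRC5 (3.62) and TAP1 (2.52) every resistant library lay below the naive ones in 5TGM1 and above them in 8226. These values are descriptions, with no test read from them, because the genes were selected on these changes.

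For the other pathway genes the test of the difference itself, edgeR's interaction contrast, called them. Among the immunoproteasome and PA28 genes the differences were 1.89 for PSMB8, 1.94 for PSMB9, 0.80 for PSME1 and 0.94 for PSME2. Among the regulators they were 4.22 for CIITA, 1.60 for IRF9, 1.21 for IRF2, 1.06 for STAT2, 0.69 for NFYC and 0.61 for RFX5, with RFXAP at -1.63, RFXANK at -0.35 and IRF1 at -0.28. The CIITA value rests on 72 and 26 reads per group in 5TGM1.

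Of the trimming and loading genes ERAP1 differed by 1.49, TAPBPL by -1.52, CALR by -1.07 and PDIA3 by -0.63. Of the interferon receptors and kinases JAK2 differed by 0.95, TYK2 by 0.50 and JAK1 by 0.29, and IFNAR2 by -1.31, IFNGR1 by -0.65, IFNAR1 by -0.40 and IFNGR2 by -0.20, whose call was lost when single libraries were left out (adjusted p up to 0.13). MR1 differed by -0.55 and FCGRT by -4.82, where bortezomib-resistant 8226 held 2 FCGRT reads. NOD1 differed by 1.76, with 20 and 6 reads in 5TGM1, and its call was lost with counts taken without regard to strand (0.65, adjusted p = 0.12). NLRX1 differed by 0.76.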

How the results depend on the processing

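Most values kept their direction and call: of the alternatives computed, 2514 values were unchanged in both respects, 47 named-gene calls were lost, 1 was gained, 7 values reversed and 19 moved by more than the spread between replicates. Of those 19, 18 were changes of the listed genes. All of the 18 came with library size alone, except HLA-C in carfilzomib-resistant over naive cells with DESeq2 (-0.35). Among them, in bortezomib-resistant over naive 8226, NLRC5 went from 0.57 to 0.76, TAP1 from 0.70 to 0.89 and B2M from -0.86 to -0.67. There HLA-C went from -0.48 to -0.30 and TAP2 from -0.46 to -0.28. In carfilzomib- over bortezomib-resistant cells HLA-C went from 0.16 to 0.04 and NLRC5 from -0.45 to -0.58. The differences between lines moved too, NLRC5 from 3.62 to 3.8, TAP1 from 2.52 to 2.7 and B2M from 0.82 to 1.0. That of TAP2 went from -0.35 to -0.16 and that of TAPBP from 0.14 to 0.32. With library size alone HLA-B reversed to 0.04 (bortezomib-resistant over naive 8226) and -0.06 (carfilzomib- over bortezomib-resistant), HLA-E to -0.01 (carfilzomib- over bortezomib-resistant) and ERAP1 to 0.04 (carfilzomib-resistant over naive), and 14 instead of 22 other pathway genes were called lower in bortezomib-resistant 8226. ERAP1 there also turned to 0.02 without naive replicate 2 and to 0.00 without carfilzomib-resistant replicate 2, and the TAPBP difference between lines ran from -0.02 (without naive 8226 replicate 2) to 0.26 (without naive 8226 replicate 3). The cause of these changes was not tested. Over left-out libraries the Nlrc5 change in 5TGM1 ran from -3.06 to -2.99.

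The labels give same-numbered libraries of different groups only a number in common. Their deviations correlated at -0.105 to 0.156, beside -0.152 to 0.11 for libraries of different number. Whether same-numbered libraries shared a preparation is not known. With the replicate block 12 pathway genes rose and 27 fell in 5TGM1 against 13 and 28 without it, 16 and 22 in bortezomib-resistant 8226 as without it, and in 5TGM1 3912 genes rose over all. The block ended the calls of Erap1 in 5TGM1 (adjusted p = 0.077) and of HLA-E between the resistant 8226 lines (adjusted p = 0.052). Depth limits CIITA in 5TGM1 (26 to 72 reads per group), and FCGRT (2 to 152) and HLA-F (16 to 475) in 8226.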
